A study of Arabidopsis thaliana with 48 samples.

Results

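Transcripts of 7 nuclear genes of photoprotection and the xanthophyll cycle were followed in leaves of Arabidopsis thaliana: ELIP1 (AT3G22840), ELIP2 (AT4G14690), OHP1 (AT5G02120), VDE (AT1G08550), ZEP (AT5G67030), PSBS (AT1G44575) and LHCB7 (AT1G76570). They were chosen by identifier out of 32833 listed genes, and all 7 were among the 19556 genes abundant enough to be tested, with a mean normalized read count of at least 10. Bulk leaf RNA was sequenced from the MYB30 knockout myb30, whose gene encodes an R2R3-MYB transcription factor, and from its wild type Col-0 (Col). Plants were 4 weeks old and had grown on soil in 10 h light and 14 h dark. Local leaves were given high light for 0, 2, 8 or 30 min, and systemic leaves of the same plants were not, as their label of no treatment states. The 16 groups were thus myb30 local, Col local, myb30 systemic and Col systemic leaves, each at 0, 2, 8 and 30 min, with 3 libraries a group and 48 in all. Each library came from pooled plants, 20 per repeat, and the knockout was of the whole plant. Neither its allele nor the light intensity is given in the sources used here.

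In the thylakoid, light beyond what photosynthesis can use is turned into heat or kept from the reaction centres. Violaxanthin de-epoxidase (VDE) converts violaxanthin to zeaxanthin when the lumen is acid, and zeaxanthin epoxidase (ZEP) reverses this. The photosystem II subunit PSBS senses the lumen pH and switches on the fast heat loss that zeaxanthin favours. The early light-induced proteins ELIP1 and ELIP2 and the one-helix protein OHP1 belong to the light-harvesting superfamily and protect chlorophyll or help assemble photosystem II. LHCB7 encodes a relative of the light-harvesting antenna proteins of photosystem II. Much of the control of VDE, ZEP and PSBS acts on the proteins, so transcript levels are no measure of their activity.

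Libraries held 70514715 to 89402096 reads counted in genes. MYB30 transcripts (AT3G28910) were present in both genotypes. They ranged from 176 to 818 normalized read counts in myb30 libraries and from 244 to 1039 in Col libraries. The mean was lower in myb30 in 7 of 8 comparisons, and limma gave an adjusted p under 0.05 in 0 of 8 and an unadjusted one in 6 of 8. Groups follow the sample titles, because 6 Col libraries that their titles place at 30 min carry another label that gives 0 min. Leaving systemic 0 min aside, 8 of the tested genes had no overlap between the 21 myb30 and the 21 Col libraries. In the systemic 0 min library labelled replicate 3 of myb30, and in that labelled replicate 3 of Col, 0 of the 8 lay on the side of the label, against 7 or 8 of 8 in the other systemic 0 min libraries. Changes of the 7 genes in systemic leaves, and counts in lists, are given with and without these 2 libraries where leaving them out changes a call or a count. Of the cell type markers, the 4 of mesophyll were abundant in every group, 1 of 3 root markers was abundant enough to be tested. The summed guard cell markers stood at 2923 to 3049 in myb30 local leaves at 30 min against 4613 to 5412 at 0 min, and at 2664 to 2880 in Col local leaves at 30 min against 5062 to 5748 at 0 min. All 5 guard cell markers fell in local leaves of both genotypes at 30 min. Of 5 epidermis markers 2 fell there in each genotype, or 4 under quantile normalization or the same total, and PDF1 stood at a mean of 11.5 at 30 min against 327 at 0 min in Col local leaves. Of 5 vascular markers 2 fell in myb30 and 1 rose in Col local leaves, and of the 4 of mesophyll 1 fell in myb30, and 2 rose and 1 fell in Col. Scaled to the same total, 0 vascular and 0 mesophyll markers rose in local leaves, and 2 of each fell in either genotype. Under quantile normalization 2 vascular markers fell in myb30, and 1 rose and 1 fell in Col. Of mesophyll 1 rose and 1 fell in myb30 there, and 2 rose and 1 fell in Col. For these other scalings the shares of all genes called were not computed. Of these 19 markers 0 passed in myb30 systemic leaves by limma (5 with an unadjusted p under 0.05), and in Col 1 guard cell marker fell, 1 vascular marker rose and 2 fell. Without the 2 libraries that go against their labels, 1 vascular marker rose and 1 fell in Col systemic leaves. The part of the markers in the changes of the 7 genes was not tested. In bulk leaf RNA, fewer cells of a type and less RNA per cell cannot be told apart.

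Of the 7 genes, 3 shared the steepest increase under high light: the ELIP pair and LHCB7. The 250 bases before their annotated start sites (RefSeq annotation of TAIR10.1) are shown because these 3 genes moved together. They run as chr3:8085670-8085919 on the minus strand, chr4:8417992-8418241 on the plus strand and chr1:28728748-28728997 on the plus strand, 5′ to 3′ along the gene, with motif matches in capitals.
ELIP1: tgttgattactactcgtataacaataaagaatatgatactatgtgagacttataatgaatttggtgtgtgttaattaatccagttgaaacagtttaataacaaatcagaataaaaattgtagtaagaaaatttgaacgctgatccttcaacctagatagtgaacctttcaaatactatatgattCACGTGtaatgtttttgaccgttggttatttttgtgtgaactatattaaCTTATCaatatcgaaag
ELIP2: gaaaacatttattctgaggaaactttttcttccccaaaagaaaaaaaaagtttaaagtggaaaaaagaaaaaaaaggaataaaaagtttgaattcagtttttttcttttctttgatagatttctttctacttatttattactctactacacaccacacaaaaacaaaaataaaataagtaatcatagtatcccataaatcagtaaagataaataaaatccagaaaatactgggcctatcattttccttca
LHCB7: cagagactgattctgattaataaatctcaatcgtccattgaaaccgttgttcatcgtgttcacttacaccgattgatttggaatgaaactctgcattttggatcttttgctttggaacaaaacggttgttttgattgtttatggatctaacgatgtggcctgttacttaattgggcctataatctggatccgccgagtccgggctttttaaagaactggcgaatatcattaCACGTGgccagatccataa
Both strands were searched for 6 motifs. The capitals in ELIP1 are a G-box, CACGTG, whose first base lies at -66 from the start site, and an I-box, GATAAG, read on the other strand as CTTATC at -17. LHCB7 held a G-box at -19, and the ELIP2 window held none of the 6 motifs. Among the 4 members whose windows are not shown, OHP1 held a G-box at -78 and GAANNTTC at -121, ZEP an I-box at -81 and VDE TTCNNGAA at -237, and PSBS held none. Of 27438 promoter windows of this length, 6.49% held a G-box and 12.3% an I-box. The other motifs, absent from these 3 windows, were the cold-response core CCGAC, found in 11.97% of windows, the heat shock half-site pairs GAANNTTC in 9.55% and TTCNNGAA in 7.68%, and the evening element AAAATATCT in 2.36%.

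The genes lie at chr3:8084405-8085669 (ELIP1, minus strand), chr4:8418242-8419325 (ELIP2, plus), chr5:419091-419773 (OHP1, plus), chr1:2706868-2709988 (VDE, plus), chr5:26753469-26757402 (ZEP, minus), chr1:16870221-16873427 (PSBS, plus) and chr1:28728998-28730851 (LHCB7, plus), all in TAIR10.1. None of their exonic stretches of 50 bases was found elsewhere in the genome. VDE overlaps AT1G08560 on the opposite strand by 464 bases and OHP1 overlaps AT5G02130 by 116 bases. These neighbours had at most 308 and 470.3 normalized read counts, and whether the counting used strand is not known here. Per kilobase of exon, the levels in Col local leaves at 0 min were 119452 for PSBS, 29654 for ZEP, 27795 for OHP1, 6364 for LHCB7, 1886 for VDE, 908 for ELIP1 and 493 for ELIP2. At 30 min ELIP1 reached 6040 ± 1488 per kilobase in myb30 local leaves and 8192 ± 351 in Col local leaves (SD, n = 3 each), above VDE at 1541 ± 86.8 and 1607 ± 191 in the same groups.

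Against 0 min of the same genotype and leaf, most calls among the 7 genes fell on the ELIP pair, VDE and LHCB7. Every change is given as a log2 fold change ± its standard error, from a limma fit of all tested genes. A gene is called where its adjusted p, computed over those genes within the comparison, is under 0.05. In myb30 local leaves 1 of 7 was called at 2 min, where 1.66% of all genes tested were, 1 of 7 at 8 min (18.7% of all genes) and 5 of 7 at 30 min (44.1%). In Col local leaves 2 of 7 were called at 2 min (10.7%), 1 of 7 at 8 min (26.0%) and 5 of 7 at 30 min (53.7%). At 30 min ELIP1, ELIP2, LHCB7 and PSBS were called higher and VDE lower in both genotypes. Scaled to the same total, or quantile normalized, 3 were called higher and 3 lower in either genotype, since PSBS lost its call and ZEP and OHP1 were called lower. The shares of all genes called under these scalings were not computed, so these counts cannot be set against them. The scaling to the same total moved the median of all genes by -0.16 in myb30 and -0.34 in Col local leaves at 30 min.

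In myb30 systemic leaves 0 of 7 were called at 2 min (0% of all genes), 0 of 7 at 8 min (0.880%) and 1 of 7 at 30 min (11.6%). There limma gave an unadjusted p under 0.05 for 1, 2 and 3 of the 7 at 2, 8 and 30 min, edgeR called 0, 0 and 1, and DESeq2 called 0, 0 and 2. In Col systemic leaves 4 of 7 were called at 2 min (11.8%), 5 of 7 at 8 min (22.4%) and 5 of 7 at 30 min (34.7%). Without the 2 libraries that go against their labels, the calls of the 3 times together were 1 in myb30 systemic leaves, and 11 instead of 14 in Col systemic leaves. The 3 times of a genotype and leaf share their 0 min libraries, so their changes are not independent of each other. The spread that enters the p-values is that between pooled libraries, and the labels do not say how separately the pools were grown.

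**Figure D1:**
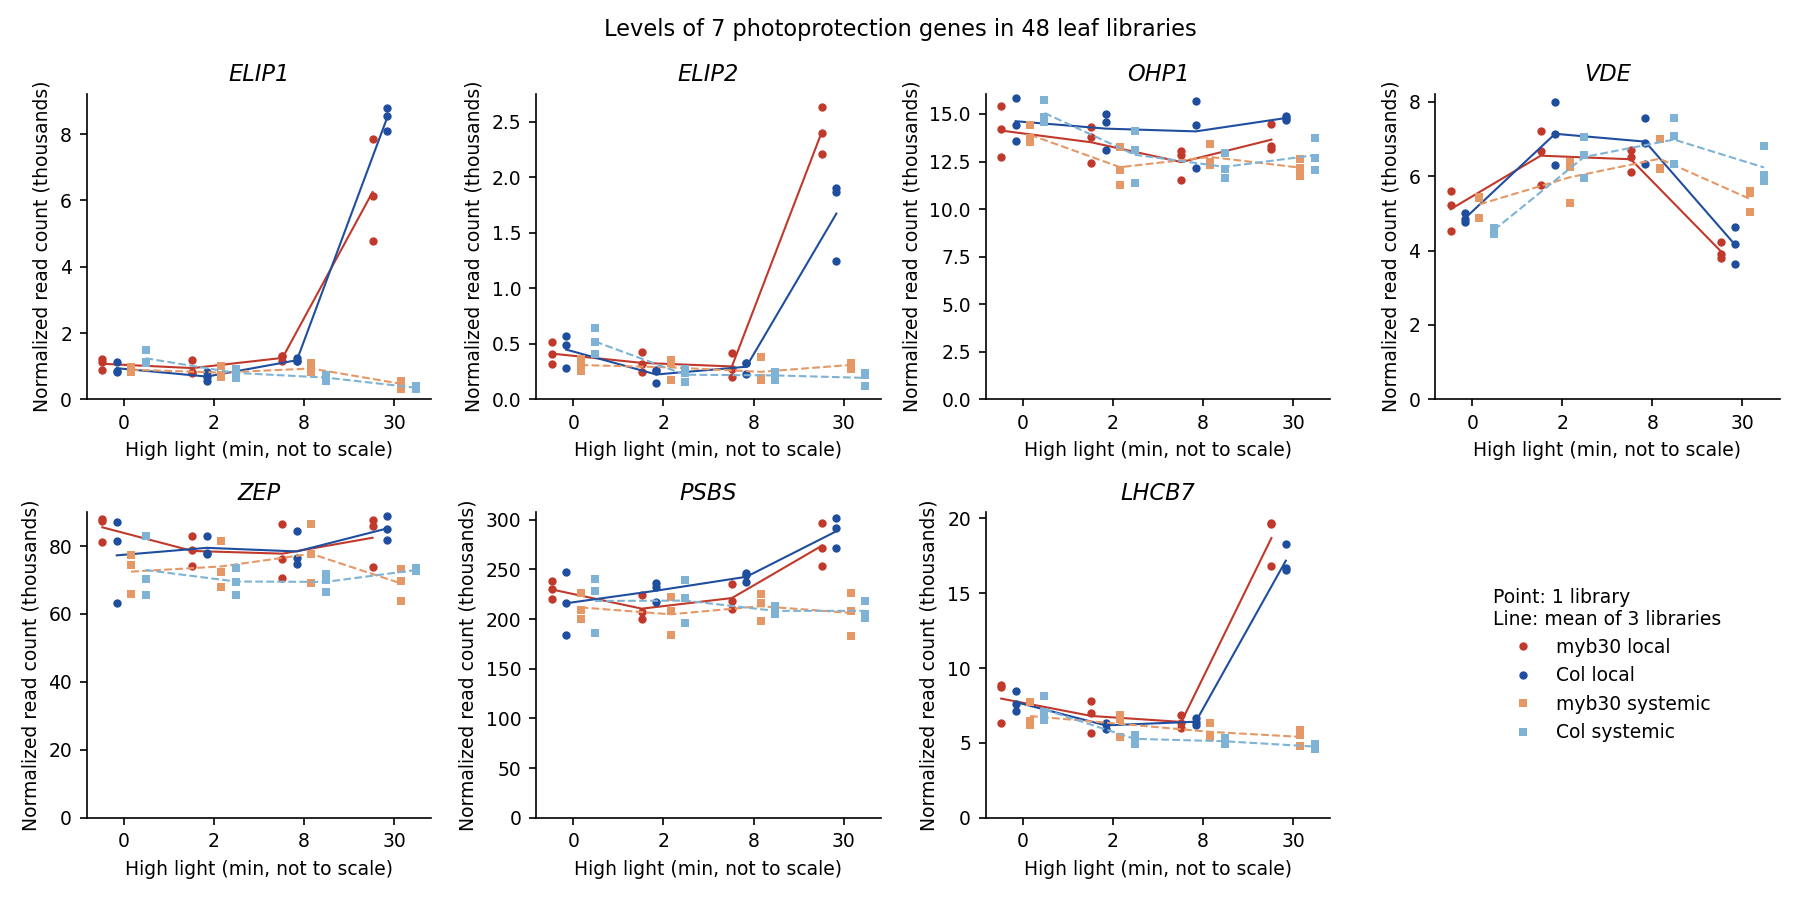
Normalized read counts (linear axes) of the 7 genes at 0, 2, 8 and 30 min of high light in myb30 local, Col local, myb30 systemic and Col systemic leaves; each point is 1 library and each line joins the means of 3. ELIP1, ELIP2 and LHCB7 stand apart in local leaves at 30 min, VDE is highest at 2 and 8 min, and ZEP and OHP1 spread least relative to their levels.

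ELIP1 was the member with the widest relative range, from 315 normalized read counts in 1 myb30 systemic library at 30 min to 8802 in 1 Col local library at 30 min. In myb30 local leaves its libraries stood at 879.6, 1117 and 1221 at 0 min, 827, 806 and 1194 at 2 min, 1143, 1301 and 1304 at 8 min, and 4769, 7843 and 6141 at 30 min. The Col local libraries held 1130.5, 855 and 833 at 0 min, 839.6, 556 and 666 at 2 min, 1237, 1161 and 1144 at 8 min, and 8802, 8551 and 8085 at 30 min. All 30 min local libraries thus lay far above every library of the earlier times, and the lowest of the Col ones lay above the highest of the myb30 ones. The difference between the genotypes did not pass by limma, as given below. ELIP1 rose at 30 min in myb30 local leaves by 2.53 ± 0.20 (adjusted p = 3.51e-13) and in Col local leaves by 3.19 ± 0.20 (adjusted p = 4.01e-16). At 2 min the change was -0.20 in myb30 and -0.46 in Col local leaves, and at 8 min 0.23 and 0.34, none of which passed.

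In systemic leaves ELIP1 went the other way. In myb30 systemic leaves its libraries stood at 976, 825 and 882 at 0 min, 738, 684 and 998 at 2 min, 857, 1101 and 835 at 8 min, and 545, 315 and 540.5 at 30 min. The Col systemic libraries held 1099, 1117 and 1501 at 0 min, 903, 848 and 641 at 2 min, 737, 668 and 563 at 8 min, and 405, 326 and 322 at 30 min. In both genotypes the 30 min libraries lay below every 0 min library, and in Col the 2 min and 8 min libraries did too. ELIP1 fell in myb30 systemic leaves at 30 min by 0.98 on the log2 scale (adjusted p = 0.00123), or by 0.99 without the 2 libraries that go against their labels. That call was lost with the compared groups fitted alone (adjusted p = 0.058) or without library number 2 (-0.77, adjusted p = 0.0681), where a library number is the replicate number of the titles, left out of every group. In systemic leaves of Col it fell at 2 min (-0.64 ± 0.20, adjusted p = 0.0313), 8 min (-0.91 ± 0.20, adjusted p = 0.00126) and 30 min (-1.81 ± 0.20, adjusted p = 1.41e-08). Without both libraries in doubt the Col values were -0.49, adjusted p = 0.181 at 2 min, -0.76, adjusted p = 0.015 at 8 min and -1.67, adjusted p = 1.02e-06 at 30 min. The call at 2 min was thus lost, and it was also lost without Col systemic 0 min replicate 3 (-0.49, adjusted p = 0.172), Col systemic 2 min replicate 2 (-0.69, adjusted p = 0.0574) or Col systemic 2 min replicate 3 (-0.49, adjusted p = 0.204). The same call was also lost without the filter (adjusted p = 0.063), with the compared groups fitted alone (adjusted p = 0.0723), without library number 2 (-0.75, adjusted p = 0.0693) or without library number 3 (-0.34, adjusted p = 0.571). The 8 min call was lost without library number 3 (-0.66, adjusted p = 0.0946). In the order of its 16 group means, both local 30 min groups stood at the top, each separate from the next, and the last break came after Col systemic 8 min, with myb30 and Col systemic 30 min leaves lowest.

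ELIP2, the second early light-induced protein gene, rose to a lower level than its pair. In myb30 local leaves its libraries stood at 314, 513 and 409 at 0 min, 242, 426 and 317 at 2 min, 198, 421 and 270.4 at 8 min, and 2399, 2629.7 and 2209 at 30 min. The Col local libraries held 492, 574 and 278 at 0 min, 268, 258 and 145 at 2 min, 326, 331 and 225 at 8 min, and 1908, 1866 and 1246 at 30 min. The 30 min libraries again lay above all others, and here the myb30 ones lay above the Col ones. This genotype difference did not pass by limma either. ELIP2 rose at 30 min by 2.57 ± 0.33 in myb30 local leaves (adjusted p = 3.82e-08) and by 1.94 ± 0.33 in Col local leaves (adjusted p = 5.49e-06). Before that it fell in Col local leaves at 2 min (-0.99 ± 0.33, adjusted p = 0.0465). That call was lost without Col local 0 min replicate 1 (-0.89, adjusted p = 0.116), Col local 0 min replicate 2 (-0.77, adjusted p = 0.221), Col local 2 min replicate 2 (-1.11, adjusted p = 0.0566) or Col local 2 min replicate 3 (-0.70, adjusted p = 0.31). The call ended, too, without the filter (adjusted p = 0.0912), under quantile normalization (-0.96, adjusted p = 0.0622), with the compared groups fitted alone (adjusted p = 0.118), without library number 1 (-1.04, adjusted p = 0.131), without library number 2 (-0.90, adjusted p = 0.207) or without library number 3 (-1.01, adjusted p = 0.206). The other early local changes were -0.34 and -0.51 at 2 and 8 min in myb30 and -0.56 at 8 min in Col, which did not pass.

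In myb30 systemic leaves the ELIP2 libraries stood at 259.6, 362 and 305 at 0 min, 176, 356 and 331 at 2 min, 188, 384 and 171 at 8 min, and 271, 329 and 329.6 at 30 min. The libraries of all 4 times overlapped. In Col systemic leaves they stood at 517, 639 and 407 at 0 min, 273, 235 and 157 at 2 min, 223, 248 and 175 at 8 min, and 219, 241 and 119 at 30 min. Every 2, 8 and 30 min library lay below every 0 min library. The Col decrease passed at 2 min (-1.24 ± 0.33, adjusted p = 0.012), 8 min (-1.26 ± 0.33, adjusted p = 0.00545) and 30 min (-1.47 ± 0.33, adjusted p = 0.000601). Without the 2 libraries that go against their labels the values were -1.41, adjusted p = 0.0241 at 2 min, -1.43, adjusted p = 0.00797 at 8 min and -1.63, adjusted p = 0.000971 at 30 min. The call at 2 min was lost without Col systemic 2 min replicate 3 (-1.01, adjusted p = 0.108), and without library number 2 (-1.15, adjusted p = 0.0842) or without library number 3 (-1.18, adjusted p = 0.129). The myb30 changes were -0.15, -0.40 and 0.014 at 2, 8 and 30 min, with 0 of 3 passing. Among its 16 group means, only myb30 local 30 min and Col local 30 min leaves, in that order, were separate from the next group down.

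OHP1, whose protein works with OHP2 in building photosystem II, hardly moved. Its libraries ranged from 11519 to 15403 normalized read counts in myb30 local, 12164 to 15849 in Col local, 11281 to 14446 in myb30 systemic and 11364 to 15733 in Col systemic leaves. It fell in Col systemic leaves at 8 min, to 12095, 12927 and 11638 against 15733, 14579 and 14853 at 0 min (-0.30 ± 0.083, adjusted p = 0.00841), and at 30 min, to 12059, 13733 and 12708 (-0.23 ± 0.083, adjusted p = 0.0278). All 8 min and all 30 min libraries lay below all 0 min ones. The 8 min call was lost without Col systemic 8 min replicate 3 (-0.27, adjusted p = 0.0596), and without library number 1 (-0.26, adjusted p = 0.057) or without library number 3 (-0.28, adjusted p = 0.0562). The 30 min call was lost without Col systemic 0 min replicate 1 (-0.20, adjusted p = 0.103), Col systemic 30 min replicate 1 (-0.19, adjusted p = 0.127) or Col systemic 30 min replicate 3 (-0.23, adjusted p = 0.0674), and without both libraries in doubt (-0.24, adjusted p = 0.0503). Further, it was lost with the compared groups fitted alone (adjusted p = 0.0652), without the 3 outlying 0 min libraries (-0.20, adjusted p = 0.103), without library number 1 (-0.16, adjusted p = 0.227), without library number 2 (-0.30, adjusted p = 0.0719) or without library number 3 (adjusted p = 0.055). At 2 min the Col systemic change of -0.23 did not pass by limma, and passed without Col systemic 2 min replicate 1 (-0.30, adjusted p = 0.0246) and by DESeq2 (adjusted p = 0.0497). The myb30 local change of -0.18 at 8 min did not pass by limma, and passed without myb30 local 0 min replicate 1 (-0.25, adjusted p = 0.0454), and under quantile normalization (-0.23, adjusted p = 0.035) or without library number 1 (-0.28, adjusted p = 0.0431). In local leaves at 30 min the changes were -0.046 in myb30 and 0.019 in Col, neither of which passed. Under quantile normalization these were -0.25, adjusted p = 0.00983 and -0.31, adjusted p = 0.00125, and with every library scaled to the same total -0.21, adjusted p = 0.0278 and -0.32, adjusted p = 0.000694, called lower. No neighbours in the order of its 16 group means were separate.

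VDE, the de-epoxidase that makes zeaxanthin, was the member that rose at the earliest time after 0 min. In myb30 local leaves its libraries stood at 5602, 5229 and 4517 at 0 min, 6690.3, 7216 and 5761 at 2 min, 6532, 6722 and 6123 at 8 min, and 3905, 4236 and 3808 at 30 min. The Col local libraries held 5019, 4759 and 4839 at 0 min, 6292, 7132 and 8010.2 at 2 min, 6324, 6899 and 7577 at 8 min, and 3645, 4182 and 4630.5 at 30 min. In both genotypes every 2 and 8 min library lay above every 0 min library, and every 30 min library lay below every 0 min one. At 2 min VDE rose by 0.36 ± 0.097 in myb30 (adjusted p = 0.0473) and 0.55 ± 0.097 in Col local leaves (adjusted p = 0.000618). At 8 min it rose by 0.34 ± 0.097 in myb30 (adjusted p = 0.0119) and 0.51 ± 0.097 in Col (adjusted p = 0.0002). At 30 min it was lower than at 0 min in myb30 (-0.36 ± 0.097, adjusted p = 0.00278) and in Col (-0.24 ± 0.097, adjusted p = 0.0377).

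Several of these VDE calls were lost when 1 of several libraries was left out. The myb30 call at 2 min was lost without myb30 local 0 min replicate 2 (0.38, adjusted p = 0.0983), myb30 local 0 min replicate 3 (0.27, adjusted p = 0.389), myb30 local 2 min replicate 1 (0.34, adjusted p = 0.194) or myb30 local 2 min replicate 2 (0.28, adjusted p = 0.214), and when each library was scaled to the same total (0.38, adjusted p = 0.0586). The same call was also lost without the filter (adjusted p = 0.0884), with the compared groups fitted alone (adjusted p = 0.218), without the 3 outlying 0 min libraries (adjusted p = 0.0535), without library number 1 (0.41, adjusted p = 0.119) or without library number 2 (0.30, adjusted p = 0.529). The myb30 call at 8 min was lost without myb30 local 0 min replicate 3 (0.25, adjusted p = 0.121), and with the compared groups fitted alone (adjusted p = 0.0539) or without library number 2 (0.33, adjusted p = 0.16). The Col call at 30 min was lost without Col local 0 min replicate 1 (-0.22, adjusted p = 0.0992), Col local 0 min replicate 2 (-0.25, adjusted p = 0.0542), Col local 0 min replicate 3 (-0.24, adjusted p = 0.0678), Col local 30 min replicate 1 (-0.15, adjusted p = 0.255) or Col local 30 min replicate 2 (-0.25, adjusted p = 0.061). The call ended, too, without the filter (adjusted p = 0.0632), with the compared groups fitted alone (adjusted p = 0.055), without the 3 outlying 0 min libraries (adjusted p = 0.072), without library number 1 (-0.12, adjusted p = 0.376) or without library number 2 (-0.26, adjusted p = 0.152). The Col local calls at 2 and 8 min and the myb30 local call at 30 min were kept without any 1 library. The Col one at 2 min was lost without library number 2 (0.53, adjusted p = 0.0919), and the myb30 one at 30 min without library number 1 (-0.27, adjusted p = 0.0602).

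In systemic leaves, which stood outside the high light, VDE libraries in Col stood at 4457, 4589 and 4616 at 0 min, 5945, 6564 and 7048 at 2 min, 6322, 7079.9 and 7564 at 8 min, and 5869, 6028 and 6819 at 30 min. VDE rose there at 2 min (0.51 ± 0.097, adjusted p = 0.000997), 8 min (0.61 ± 0.097, adjusted p = 5.57e-05) and 30 min (0.45 ± 0.097, adjusted p = 0.000405), and every library after 0 min lay above the 0 min libraries. Without the 2 libraries in doubt the values were 0.52, adjusted p = 0.0054 at 2 min, 0.62, adjusted p = 0.000401 at 8 min and 0.46, adjusted p = 0.00152 at 30 min. The 2 min call was lost without library number 2 (adjusted p = 0.0612). In myb30 systemic leaves VDE stood at 5415, 5446 and 4877 at 0 min, 6238, 6388 and 5292 at 2 min, 7009, 6213 and 6198 at 8 min, and 5030.2, 5555 and 5599 at 30 min. There every 8 min library lay above every 0 min library, the other times overlapped with 0 min, and the changes of 0.18, 0.30 and 0.040 at 2, 8 and 30 min did not pass. In the order of group means only 1 pair of neighbours was separate, Col local 0 min above Col systemic 0 min leaves. This did not part the groups above from those below. The myb30 local 0 min leaves, ranked higher, reached down to 4517 and overlapped with Col systemic 0 min leaves. Col local 30 min and myb30 local 30 min leaves had the lowest means.

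ZEP, which returns zeaxanthin to violaxanthin, was called in 0 of 12 comparisons with 0 min by limma, edgeR or DESeq2, and limma gave 0 unadjusted p under 0.05. Its libraries ranged from 70509.5 to 87855 in myb30 local, 63125 to 88730.1 in Col local, 63911 to 86433 in myb30 systemic and 65529 to 82831 in Col systemic leaves, and no neighbours in the order of its 16 group means were separate. The local changes at 30 min were -0.056 ± 0.098 in myb30 and 0.15 ± 0.098 in Col. The Col value passed without Col local 0 min replicate 1 (0.25, adjusted p = 0.0491). Of the 7 genes, ZEP depended most on scaling, and its direction in Col local leaves flipped: under quantile normalization the 30 min values were -0.48, adjusted p = 8.47e-07 in myb30 and -0.60, adjusted p = 8.29e-09 in Col, and scaled to the same total -0.22, adjusted p = 0.0228 and -0.18, adjusted p = 0.0418.

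PSBS, the pH sensor of heat dissipation, was the most abundant of the 7 per kilobase and moved little. The myb30 local libraries held 271220, 296658 and 253838 at 30 min and at 238752, 220701 and 230085 at 0 min. The Col local libraries held 291768, 271678 and 301865 at 30 min and at 247160, 216542 and 184207 at 0 min. All 30 min libraries lay above all 0 min libraries in both genotypes. PSBS rose by 0.25 ± 0.095 in myb30 (adjusted p = 0.0308) and 0.43 ± 0.095 in Col (adjusted p = 0.000286). Both calls were lost under quantile normalization, with 0.065, adjusted p = 0.416 in myb30 and 0.076, adjusted p = 0.316 in Col, and scaled to the same total, with 0.088, adjusted p = 0.285 and 0.089, adjusted p = 0.245. The myb30 call was also lost without myb30 local 0 min replicate 2 (0.22, adjusted p = 0.0998), myb30 local 0 min replicate 3 (0.25, adjusted p = 0.0631), myb30 local 30 min replicate 1 (0.26, adjusted p = 0.0597) or myb30 local 30 min replicate 2 (0.19, adjusted p = 0.153). Further, it was lost without the filter (adjusted p = 0.0696), with the compared groups fitted alone (adjusted p = 0.0812), without library number 1 (0.28, adjusted p = 0.099) or without library number 2 (0.16, adjusted p = 0.334). At 2 and 8 min the local changes were -0.13 and -0.056 in myb30 and 0.091 and 0.18 in Col, of which the last passed without Col local 0 min replicate 1 (0.28, adjusted p = 0.038). In systemic leaves its libraries ranged from 183394 to 226673 in myb30 and from 185784 to 240478 in Col, with 0 of 6 changes called by limma, edgeR or DESeq2 and 0 unadjusted p under 0.05 by limma.

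LHCB7 rose with the ELIP pair, from a higher level per kilobase. In myb30 local leaves its libraries stood at 6315, 8857 and 8715 at 0 min, 5649.7, 7793 and 6971 at 2 min, 6029.7, 6836 and 6352 at 8 min, and 19672, 16789 and 19603 at 30 min. The Col local libraries held 7129, 7603 and 8465 at 0 min, 6309.7, 6269.8 and 5948 at 2 min, 6397, 6184 and 6680.0 at 8 min, and 16702, 18303 and 16521 at 30 min. The 30 min libraries lay above all others, and those of the genotypes overlapped. LHCB7 rose at 30 min by 1.24 ± 0.11 in myb30 (adjusted p = 1.68e-11) and by 1.15 ± 0.11 in Col local leaves (adjusted p = 7.57e-11). At 2 and 8 min the values were -0.22 and -0.30 in myb30 and -0.32 and -0.27 in Col, and none passed by limma. The myb30 value at 8 min passed without myb30 local 0 min replicate 1 (-0.46, adjusted p = 0.00364). It passed, too, by DESeq2 (-0.31, adjusted p = 0.0347), under quantile normalization (-0.33, adjusted p = 0.0454), without both libraries in doubt (adjusted p = 0.0456), without the 3 outlying 0 min libraries (adjusted p = 0.048) and without library number 1 (-0.41, adjusted p = 0.0142). The Col value at 2 min passed without Col local 0 min replicate 1 (-0.38, adjusted p = 0.0476). It passed, too, by DESeq2 (-0.33, adjusted p = 0.0399), with the same total (-0.37, adjusted p = 0.0491), without both libraries in doubt (adjusted p = 0.0462) and without library number 1 (-0.39, adjusted p = 0.0288). The Col value at 8 min passed under quantile normalization (-0.35, adjusted p = 0.0289), with the same total (-0.38, adjusted p = 0.0168) and without library number 1 (-0.32, adjusted p = 0.0399).

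In myb30 systemic leaves LHCB7 libraries stood at 6203, 6468 and 7722 at 0 min, 5384, 6852 and 6595 at 2 min, 5527, 6305 and 5393 at 8 min, and 5884, 4782 and 5562 at 30 min. In Col systemic leaves they stood at 6509, 7086 and 8119 at 0 min, 5532, 4957 and 5343 at 2 min, 5116, 5317 and 4909 at 8 min, and 4584, 4749 and 4947 at 30 min. Every Col library after 0 min lay below every 0 min library. LHCB7 fell in these Col leaves at 2 min (-0.45 ± 0.11, adjusted p = 0.00877), 8 min (-0.50 ± 0.11, adjusted p = 0.00195) and 30 min (-0.60 ± 0.11, adjusted p = 8.06e-05). Without both libraries in doubt the values were -0.37, adjusted p = 0.0623 at 2 min, -0.41, adjusted p = 0.0167 at 8 min and -0.51, adjusted p = 0.00127 at 30 min. The 2 min call was thus lost, as it was without Col systemic 0 min replicate 3 (-0.37, adjusted p = 0.0679), and without library number 2 (-0.42, adjusted p = 0.0901) or without library number 3 (-0.38, adjusted p = 0.257). The 8 min call was lost without library number 3 (-0.38, adjusted p = 0.133). The myb30 systemic change of -0.33 at 30 min did not pass by limma, passed by DESeq2 (-0.33, adjusted p = 0.0349), and passed without myb30 systemic 0 min replicate 1 (-0.39, adjusted p = 0.0418), and without library number 1 (-0.45, adjusted p = 0.0164). In the order of group means the single break separated myb30 and Col local 30 min leaves, at the top, from all other groups.

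**Figure D2:**
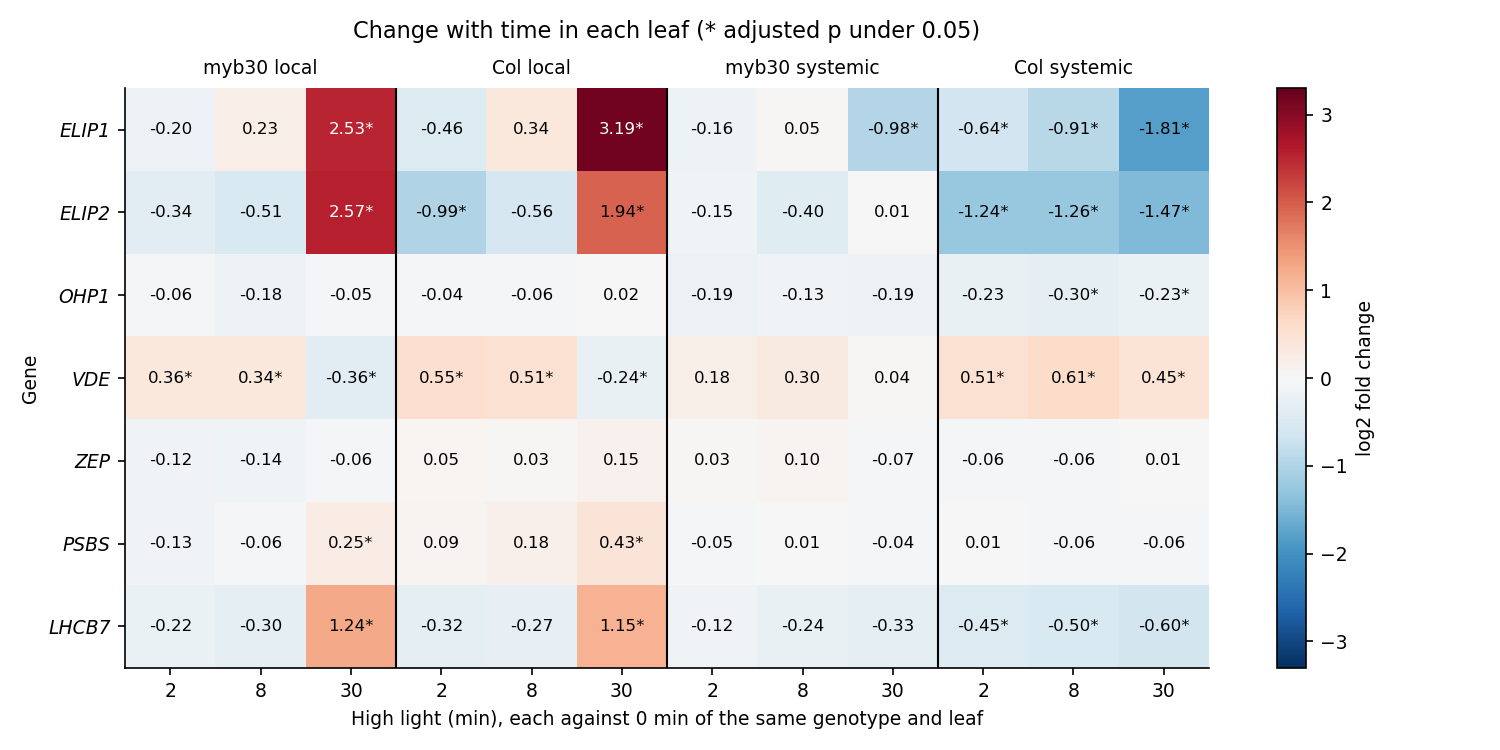
Log2 fold changes of the 7 genes at 2, 8 and 30 min against 0 min of the same genotype and leaf, in colour and as printed values; an asterisk marks an adjusted p under 0.05. The red blocks of ELIP1, ELIP2 and LHCB7 stand in the local leaves of both genotypes at 30 min, and most of the called decreases stand in Col systemic leaves.

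Over the steps from 2 to 8 and from 8 to 30 min, the increases of ELIP1, ELIP2 and LHCB7 in local leaves lay mostly in the later step. VDE in local leaves had risen by 2 min, before these steps. From 2 to 8 min, 0 of 7 were called in myb30 local leaves (3.50% of all genes; 1 unadjusted p under 0.05, 0 calls by edgeR and DESeq2) and 1 of 7 in Col local leaves (5.02%), which was ELIP1. It rose over that step by 0.80 ± 0.20 (adjusted p = 0.00802), a call lost without Col local 2 min replicate 2 (0.66, adjusted p = 0.102), and without library number 2 (0.67, adjusted p = 0.178) or without library number 3 (0.81, adjusted p = 0.0848). In systemic leaves 0 of 7 were called over that step in myb30 (0%) and in Col (0%); limma gave an unadjusted p under 0.05 for 0 of 7 in each, and edgeR and DESeq2 called 0. From 8 to 30 min, 5 of 7 were called in myb30 local leaves (36.7%) and 5 of 7 in Col local leaves (41.1%). ELIP1 rose over this step by 2.30 ± 0.20 in myb30 and 2.84 ± 0.20 in Col. ELIP2 rose by 3.09 ± 0.33 and 2.50 ± 0.33, and LHCB7 by 1.54 ± 0.11 and 1.42 ± 0.11. VDE fell by 0.70 in myb30 and 0.74 in Col. The highest adjusted p of these 8 steps was 2.84e-07. PSBS rose by 0.31 ± 0.095 in myb30 (adjusted p = 0.0101), a call lost without myb30 local 8 min replicate 2 (0.27, adjusted p = 0.0509) or myb30 local 30 min replicate 2 (0.25, adjusted p = 0.0692). The same call was also lost under quantile normalization (0.096, adjusted p = 0.248), with the compared groups fitted alone (adjusted p = 0.0632), without library number 1 (0.30, adjusted p = 0.0939) or without library number 2 (0.21, adjusted p = 0.224). Its Col value of 0.25 ± 0.095 (adjusted p = 0.0345) was lost without Col local 8 min replicate 1 (0.26, adjusted p = 0.0582), Col local 8 min replicate 2 (0.25, adjusted p = 0.0666), Col local 8 min replicate 3 (0.23, adjusted p = 0.0885), Col local 30 min replicate 1 (0.24, adjusted p = 0.0839) or Col local 30 min replicate 3 (0.22, adjusted p = 0.119). The call ended, too, without the filter (adjusted p = 0.0779), under quantile normalization (0.011, adjusted p = 0.909), with the same total (0.029, adjusted p = 0.729), without library number 1 (adjusted p = 0.159), without library number 2 (0.30, adjusted p = 0.0762) or without library number 3 (0.20, adjusted p = 0.136). ZEP in myb30, which did not pass, passed without library number 3 (0.24, adjusted p = 0.0428). In systemic leaves from 8 to 30 min, 1 of 7 was called in myb30 (2.2%) and 1 of 7 in Col (8.20%): ELIP1 fell in both, by 1.03 (adjusted p = 0.00201) and 0.90 (adjusted p = 0.00276). The myb30 call was lost with the compared groups fitted alone (adjusted p = 0.213) or without library number 2 (-0.64, adjusted p = 0.405), and the Col call without library number 2 (-0.83, adjusted p = 0.0749).

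Local and systemic leaves of the same genotype were then compared at each time. At 0 min 0 of 7 genes were called in myb30 (0% of all genes) and in Col (0%), with an unadjusted p under 0.05 for 1 and 0 of the 7 by limma and 0 calls by edgeR and DESeq2. At 2 min 0 of 7 were called in myb30 (0.0409%) and in Col (0.133%), with 0 unadjusted p under 0.05 and 0 calls by edgeR and DESeq2. At 8 min 0 of 7 were called in myb30 (3.91%; 1 unadjusted, 0 by edgeR and DESeq2) and 1 of 7 in Col (10.4%). That gene was ELIP1, at 1237, 1161 and 1144 in local and 737, 668 and 563 in systemic leaves of Col, which did not overlap (0.86 ± 0.20, adjusted p = 0.00304). The call was lost without library number 3 (0.77, adjusted p = 0.0739). LHCB7 in Col at 8 min, 0.33 ± 0.11, did not pass by limma, and passed with the library number as a block (0.33, adjusted p = 0.0332). It passed, too, by DESeq2 (adjusted p = 0.0409), with the compared groups fitted alone (adjusted p = 0.0148), without both libraries in doubt (adjusted p = 0.0419) and without the 3 outlying 0 min libraries (adjusted p = 0.0438). OHP1 in Col at 8 min passed without Col local 8 min replicate 3 (0.30, adjusted p = 0.0242).

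At 30 min 6 of 7 genes were called in myb30 (42.0%) and 6 of 7 in Col (50.4%). ELIP1 was 13.5-fold higher in local than in systemic leaves of myb30 (3.75 ± 0.20, adjusted p = 4.9e-18) and 24.2-fold higher in Col (4.60 ± 0.20, adjusted p = 6.6e-21), the largest leaf difference of the 7. ELIP2 was 7.77-fold higher in myb30 (2.96 ± 0.33, adjusted p = 1.76e-09) and 8.85-fold higher in Col (3.15 ± 0.33, adjusted p = 2.84e-10). LHCB7 was 3.46-fold higher in myb30 (1.79 ± 0.11, adjusted p = 8.71e-16) and 3.61-fold higher in Col (1.85 ± 0.11, adjusted p = 2.06e-16). For these 3 genes the local and systemic libraries did not overlap in either genotype. VDE was lower in local leaves of myb30 (-0.44 ± 0.097, adjusted p = 0.000349) and Col (-0.59 ± 0.097, adjusted p = 3.37e-06). PSBS was higher in myb30 (0.41 ± 0.095, adjusted p = 0.000574) and Col (0.47 ± 0.095, adjusted p = 8.56e-05), and both calls were lost under quantile normalization (0.085, adjusted p = 0.295 in myb30 and 0.11, adjusted p = 0.148 in Col). The myb30 call was also lost without library number 2 (0.27, adjusted p = 0.108).

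The smaller leaf differences of ZEP and OHP1 at 30 min depended on libraries and scaling. ZEP was called higher in local leaves of myb30 (0.26 ± 0.098, adjusted p = 0.0338), lost this call without myb30 local 30 min replicate 1 (0.22, adjusted p = 0.115), myb30 local 30 min replicate 2 (0.21, adjusted p = 0.138), myb30 systemic 30 min replicate 1 (0.27, adjusted p = 0.0538) or myb30 systemic 30 min replicate 2 (0.20, adjusted p = 0.155), and turned to -0.33, adjusted p = 0.000267 under quantile normalization. The call was lost, too, without the filter (adjusted p = 0.0563), with the same total (0.040, adjusted p = 0.69), with the compared groups fitted alone (adjusted p = 0.0819), without library number 1 (0.23, adjusted p = 0.171) or without library number 2 (0.16, adjusted p = 0.43). In Col its value of 0.22 ± 0.098 did not pass by limma, and turned to -0.53, adjusted p = 7.49e-08 under quantile normalization. It passed as higher by DESeq2 (adjusted p = 0.0475), with the compared groups fitted alone (adjusted p = 0.00784) and without the 3 outlying 0 min libraries (adjusted p = 0.0328). OHP1 was called higher in local leaves of Col (0.21 ± 0.083, adjusted p = 0.0362), but not by edgeR (0.19, adjusted p = 0.0529). It turned to -0.11, adjusted p = 0.262 under quantile normalization and -0.098, adjusted p = 0.285 scaled to the same total. Its call was lost without Col local 30 min replicate 1 (0.20, adjusted p = 0.0812), Col local 30 min replicate 2 (0.21, adjusted p = 0.07), Col local 30 min replicate 3 (0.21, adjusted p = 0.063), Col systemic 30 min replicate 1 (0.16, adjusted p = 0.151) or Col systemic 30 min replicate 3 (0.20, adjusted p = 0.0811). Further, it was lost without the filter (adjusted p = 0.0581), without library number 1 (0.16, adjusted p = 0.178), without library number 2 (0.26, adjusted p = 0.096) or without library number 3 (adjusted p = 0.0646).

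**Figure D3:**
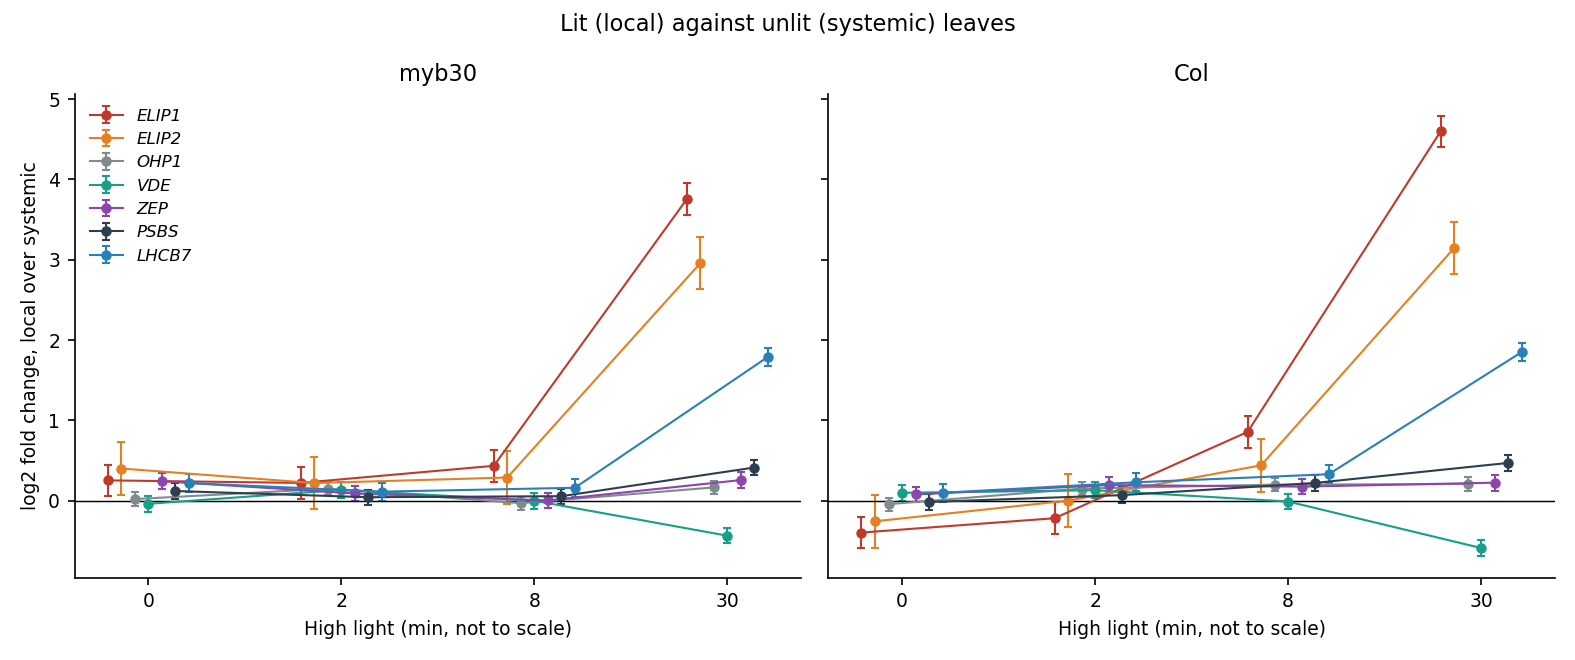
Log2 fold change of local over systemic leaves ± standard error for each of the 7 genes at 0, 2, 8 and 30 min, with myb30 left and Col right. The curves lie together near 0 up to 8 min, apart from ELIP1 in Col at 8 min, and fan out at 30 min, where ELIP1 is highest and VDE lowest.

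Whether the change from 0 min itself differed between the leaves was tested as the local minus the systemic change. At 2 min 0 of 7 genes were called in myb30 (0% of all genes) and in Col (0.0409%), with 0 unadjusted p under 0.05 and 0 calls by edgeR and DESeq2. At 8 min 0 of 7 were called in myb30 (1.27%; 0 unadjusted, 0 by edgeR and DESeq2) and 1 of 7 in Col (4.15%), which was ELIP1 (1.25 ± 0.28, adjusted p = 0.00418, or 1.11, adjusted p = 0.0256 without both libraries in doubt). The call was lost without library number 3 (0.94, adjusted p = 0.255). At 30 min 4 of 7 were called in myb30 (22.7%) and 5 of 7 in Col (36.8%). The changes of ELIP1 differed by 3.50 ± 0.28 in myb30 and 5.0 ± 0.28 in Col. Those of ELIP2 differed by 2.56 ± 0.46 and 3.40 ± 0.46, and those of LHCB7 by 1.57 ± 0.16 and 1.75 ± 0.16. VDE differed by -0.40 ± 0.14 in myb30 (adjusted p = 0.0318) and -0.69 ± 0.14 in Col (adjusted p = 0.000113). PSBS differed by 0.49 ± 0.13 in Col (adjusted p = 0.00423), a call lost under quantile normalization (0.14, adjusted p = 0.245) and scaled to the same total (0.16, adjusted p = 0.158). The same call was also lost with the compared groups fitted alone (adjusted p = 0.0618) or without the 3 outlying 0 min libraries (0.30, adjusted p = 0.0964). OHP1 in Col at 30 min did not pass, and passed without Col local 0 min replicate 1 (0.31, adjusted p = 0.0447). Without both libraries in doubt, ELIP1 gave 3.51, adjusted p = 1.77e-11 in myb30 and 4.85, adjusted p = 2.23e-15 in Col. ELIP2 gave 2.56, adjusted p = 0.000176 and 3.57, adjusted p = 5.07e-07, and LHCB7 gave 1.48, adjusted p = 7.07e-09 and 1.67, adjusted p = 2.45e-10. The myb30 call of VDE was lost without both (-0.35, adjusted p = 0.0971), and without myb30 local 0 min replicate 1 (-0.33, adjusted p = 0.11), myb30 local 0 min replicate 2 (-0.38, adjusted p = 0.0612), myb30 local 30 min replicate 1 (-0.38, adjusted p = 0.0637), myb30 local 30 min replicate 3 (-0.37, adjusted p = 0.0702), myb30 systemic 0 min replicate 3 (-0.35, adjusted p = 0.0941), myb30 systemic 30 min replicate 2 (-0.38, adjusted p = 0.0699) or myb30 systemic 30 min replicate 3 (-0.37, adjusted p = 0.0731). The call ended, too, without the filter (adjusted p = 0.0561), without the 3 outlying 0 min libraries (-0.35, adjusted p = 0.104), without library number 1 (-0.39, adjusted p = 0.104) or without library number 2 (-0.43, adjusted p = 0.173).

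The direct comparison of myb30 with Col, which asks whether MYB30 bears on these genes, gave no call among the 7. In local leaves 0 of 7 were called at 0 min (0.0102% of all genes), 2 min (0.373%), 8 min (0.0153%) and 30 min (1.42%). In systemic leaves 0 of 7 were called at 0 min (0%), 2 min (0.0767%), 8 min (0.0102%) and 30 min (0.726%). Over these 56 tests limma gave 10 unadjusted p under 0.05 and a lowest adjusted p of 0.31, and edgeR and DESeq2 called 0; DESeq2 gave no adjusted p for 2 of the 56. In local leaves at 30 min, ELIP1 stood at 6251 ± 1540.3 in myb30 and 8479 ± 364 in Col (SD, n = 3 each), with -0.47 ± 0.20, adjusted p = 0.31. ELIP2 went the other way there, at 2413 ± 211 in myb30 and 1673 ± 371 in Col, with 0.55 ± 0.33, adjusted p = 0.524. The libraries of the genotypes did not overlap for either gene, nor for OHP1, at 13156 to 14477 in myb30 and 14664 to 14917 in Col. None of these differences passed, and the share of all genes without such overlap was not computed. LHCB7 stood at 18688 ± 1645 in myb30 and 17175 ± 981 in Col, with overlapping libraries (0.12 ± 0.11, adjusted p = 0.741). In systemic leaves at 30 min, VDE stood at 5395 ± 316 in myb30 and 6239 ± 509 in Col (-0.21 ± 0.097, adjusted p = 0.462), and ELIP2 at 310.1 ± 33.5 in myb30 and 193 ± 64.8 in Col (0.74 ± 0.33, adjusted p = 0.417), without overlap for either. A p that misses the threshold does not show that the genotypes were alike.

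Nor was a difference between the genotypes in the change from 0 min called by limma, edgeR or DESeq2. In local leaves 0 of 7 were called at 2 min (0% of all genes), 8 min (0%) and 30 min (0.276%), and in systemic leaves 0 of 7 at 2 min (0%), 8 min (0%) and 30 min (0.143%). Over these 42 tests limma gave 9 unadjusted p under 0.05, edgeR and DESeq2 called 0, and the lowest adjusted p was 0.193. It belonged to ELIP2 in systemic leaves at 30 min, where the myb30 change exceeded the Col change by 1.48 ± 0.46. Without both libraries in doubt it was 1.64, adjusted p = 0.175. For ELIP1 in systemic leaves at 30 min the difference was 0.83 ± 0.28 (adjusted p = 0.228). It passed without myb30 systemic 30 min replicate 2 (1.09, adjusted p = 0.0375), and without both libraries in doubt it was 0.68, adjusted p = 0.398. In local leaves at 30 min the differences were -0.66 ± 0.28 for ELIP1 and 0.64 ± 0.46 for ELIP2 (adjusted p = 0.463 and 0.69). The decreases of ELIP1, ELIP2 and LHCB7 and the increase of VDE, which passed in Col systemic leaves at 2 and 8 min and not in myb30 ones, are therefore not shown to differ between the genotypes.

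The balance of paired genes was read as a ratio of normalized read counts within each library. At 30 min in local leaves the ratio of ELIP1 to ELIP2 was 2.58 ± 0.526 in myb30, with libraries from 1.99 to 2.98, and 5.23 ± 1.09 in Col, with libraries from 4.58 to 6.49 (SD, n = 3 each). These did not overlap. At 0 min the ratios were 2.65 ± 0.422 in myb30 and 2.26 ± 0.753 in Col local leaves, and overlapped. At 2 min they were 3.025 ± 0.996 in myb30 and 3.29 ± 1.22 in Col local leaves. At 8 min the order was the other way, with 4.56 ± 1.36 in myb30 and 4.13 ± 0.838 in Col, and the libraries overlapped at both times. In systemic leaves at 30 min the ratio was 1.53 ± 0.533 in myb30 and 1.97 ± 0.678 in Col. The ratio of VDE to ZEP, the enzymes that form and remove zeaxanthin, went in local leaves through 0.0599 ± 0.0071, 0.0839 ± 0.013, 0.0839 ± 0.012 and 0.0485 ± 0.0031 at 0, 2, 8 and 30 min in myb30. It went through 0.0642 ± 0.011, 0.0902 ± 0.013, 0.0886 ± 0.0093 and 0.0488 ± 0.0051 at those times in Col. In both genotypes the 30 min local libraries lay lowest, at or below 0.0522. In systemic leaves at 30 min it was still 0.0785 ± 0.0076 in myb30 and 0.0856 ± 0.0074 in Col, where all libraries lay above those of local leaves. These ratios compare reads and not molecules of enzyme, and were not tested.

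**Figure D4:**
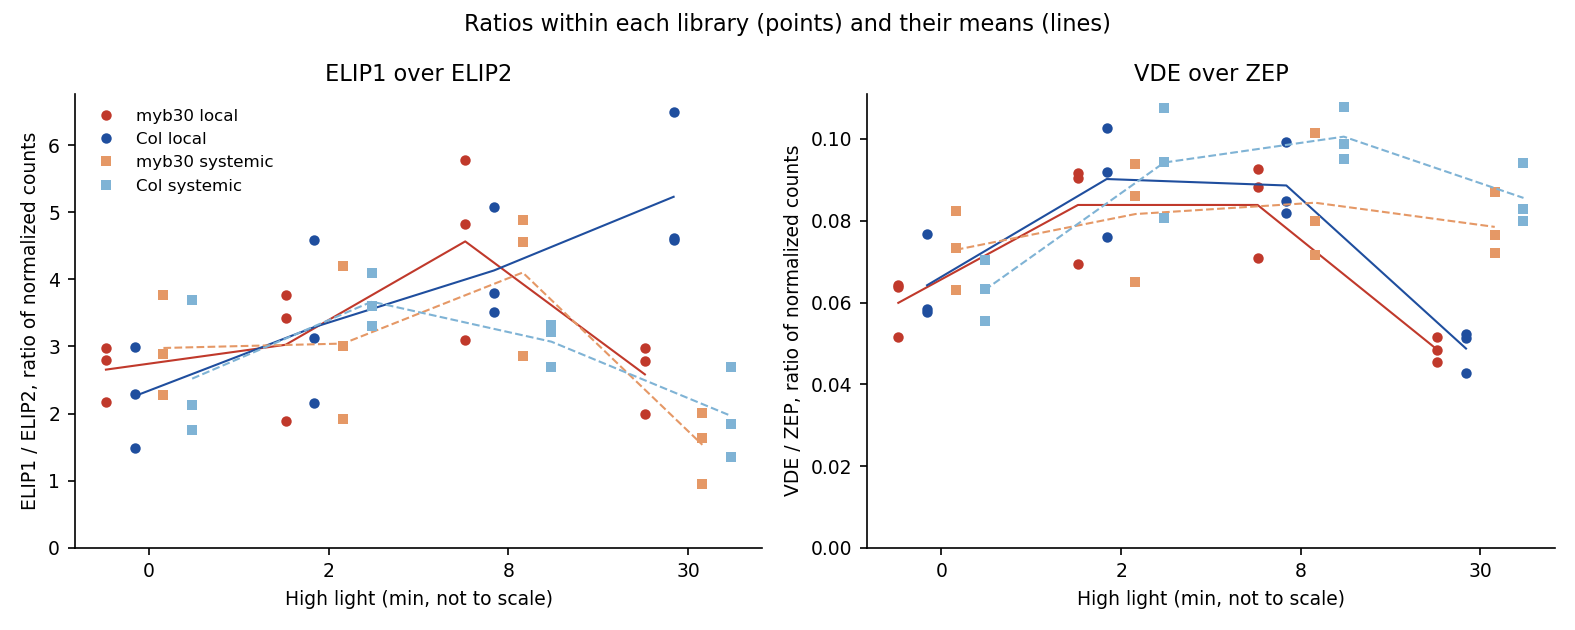
Ratios of normalized read counts within each library, ELIP1 over ELIP2 on the left and VDE over ZEP on the right, at 0, 2, 8 and 30 min in myb30 and Col local and systemic leaves; points are libraries and lines join means of 3. At 30 min in local leaves ELIP1 over ELIP2 is 2.58 in myb30 and 5.23 in Col, and VDE over ZEP is at its lowest. At 8 min ELIP1 over ELIP2 in local leaves is 4.56 in myb30 and 4.13 in Col, with overlapping libraries.

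Across all 48 libraries, which share the groups, times and scaling that move the genes, ELIP1 and LHCB7 had a Pearson r of 0.93 on the log2 scale, ELIP2 and LHCB7 0.93, and ELIP1 and ELIP2 0.87. VDE ran against them, with r of -0.81 to ELIP2, -0.75 to LHCB7 and -0.66 to ELIP1. ZEP and PSBS had r of 0.72, and OHP1 had at most 0.44 in size with any member but VDE, at -0.48. Among 17340 tested genes with a mean of at least 50, those most like ELIP1 were AT1G51340 (r = 0.967), CYTC-2 (0.965) and NPC3 (0.957). Those most like ELIP2 were SQD1 (0.960), SPX2 (0.948) and SPPA (0.946). LHCB7 was most like AT1G64140 (0.984), SRT2 (0.984) and CYP89A5 (0.982). VDE was most like WCRKC1 (0.968), AT5G12950 (0.961) and CCL (0.952), and ZEP like ABCF5 (0.945), RD21A (0.874) and AT5G06220 (0.871). PSBS was most like HCF244 (0.977), AOR (0.958) and GAPB (0.943), and OHP1 like AT3G27050 (0.827), AT5G28050 (0.818) and AT5G16470 (0.816).

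Genes of the same pathways were set beside the 7 at 30 min against 0 min, with lists described by counts and medians. The median change of the 7 was 0.25 in myb30 local, 0.43 in Col local, -0.07 in myb30 systemic and -0.23 in Col systemic leaves, where the medians of all genes tested lay between -0.0043 and 0.0014. Of all genes tested, 22.5% in myb30 local leaves were called higher and 21.6% lower, against 4 higher and 1 lower of the 7. In Col local leaves 27.2% were called higher and 26.5% lower, against 4 and 1 of the 7. In myb30 systemic leaves the shares were 5.87% higher and 5.75% lower (0 and 1 of the 7), and in Col systemic leaves 17.7% higher and 17.0% lower (1 and 4 of the 7). The counts of each list stand against these shares. Under other scalings, or without both libraries in doubt, the shares of all genes called were not computed. Of 5 relatives of the ELIP and OHP proteins, 1 rose and 1 fell in myb30 local leaves and 2 rose and 0 fell in Col local leaves, and 1 fell in systemic leaves of either genotype. Under quantile normalization 0 rose and 2 fell in myb30 and 0 rose and 3 fell in Col local leaves, and with the same total 1 rose and 1 fell in myb30 and 0 rose and 2 fell in Col. OHP2, the partner of OHP1, had 0.13 in myb30, which did not pass, and rose by 0.37 in Col local leaves, and the stress-enhanced protein gene SEP1 rose by 0.28 and 0.34. Of 11 genes of quenching and electron flow, 4 rose and 0 fell in myb30 local leaves and 8 rose and 0 fell in Col local leaves. In systemic leaves 0 of the 11 passed in myb30 by limma (1 with an unadjusted p under 0.05), and 5 rose and 1 fell in Col, or 2 and 1 without both libraries in doubt. The cyclic electron flow gene PGRL1B rose by 0.26 and 0.40 in local leaves of myb30 and Col. In Col local leaves TAP38, a phosphatase of the antenna, rose by 0.40, the quenching regulator SOQ1 by 0.22 and the potassium-proton antiporter gene KEA3 by 0.13. In myb30 local leaves KEA3 rose by 0.19, and TAP38 and SOQ1 had 0.12 and 0.097, which did not pass. Scaled to the same total, 0 of the 11 rose and 1 fell in myb30 and 0 rose and 4 fell in Col local leaves, and quantile normalized 1 rose and 3 fell, and 2 rose and 6 fell.

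Of 14 genes of carotenoid synthesis and cleavage, which supplies the substrates of VDE and ZEP, 6 rose and 2 fell in myb30 local leaves and 7 rose and 2 fell in Col local leaves. BCH2, a hydroxylase that forms zeaxanthin from beta-carotene, rose by 1.36 and 1.72, and the desaturase gene PDS3 by 0.23 and 0.46. The carotenoid cleavage gene CCD4 fell by 2.50 in myb30 and 1.99 in Col local leaves, and ABA4, needed for neoxanthin, fell by 0.13 in Col, against -0.11 in myb30, which did not pass. In systemic leaves 1 rose and 3 fell in myb30 and 2 rose and 5 fell in Col, while without both libraries in doubt 0 rose and 1 fell in myb30 and 2 rose and 4 fell in Col. Of 13 genes of photosystem II repair, 5 rose and 1 fell in myb30 local leaves and 8 rose and 0 fell in Col local leaves. The protease subunit genes FTSH1 and FTSH8 rose by 0.79 and 0.71 in myb30 and 1.04 and 0.87 in Col, and the lumenal protease genes DEG1 and DEG5 by 0.24 and 0.14 in Col, with 0.084 and 0.025 in myb30, which did not pass. In systemic leaves 0 of the repair genes passed in myb30 by limma (0 with an unadjusted p under 0.05), and 3 rose and 1 fell in Col. Without both libraries in doubt 1 of the repair genes rose and 3 fell in Col systemic leaves. The medians of both lists turned negative in local leaves of either genotype when libraries were quantile normalized or scaled to the same total. The same total gave -0.013 in myb30 and -0.099 in Col for carotenoids, and -0.078 and -0.095 for repair. Under that scaling the median of all genes lay lower still in each genotype, by the shift given with the calls against 0 min. With the same total, 2 rose and 5 fell in myb30 and 1 rose and 6 fell in Col for carotenoids, and 3 rose and 5 fell, and 5 rose and 7 fell, for repair.

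Of 14 LHCB antenna genes other than LHCB7, 13 were tested, and LHCB1.5 (AT2G34420) is listed at 0. In local leaves 0 rose and 7 fell in myb30, and 0 rose and 6 fell in Col, while LHCB7 rose. Under quantile normalization or the same total 0 rose and 11 fell in each. LHCB2.4 fell by 0.88 and 0.65 in local leaves of myb30 and Col, LHCB1.1 by 0.53 and 0.40, LHCB2.2 by 0.54 and 0.22, and LHCB2.1 by 0.45 and 0.20. In systemic leaves 0 of 13 passed in myb30 by limma (1 with an unadjusted p under 0.05), and 9 rose and 0 fell in Col, or 5 and 0 without both libraries in doubt. Without both, 8 and not 7 fell in myb30 local leaves. The LHCB1 and LHCB2 genes are near copies whose reads the counting may have split, so their single values are uncertain. Of 6 tocopherol synthesis genes, 3 rose and 1 fell in local leaves of each genotype: HPD by 0.42 and 0.68 in myb30 and Col, VTE1 by 0.38 and 0.55, VTE3 by 0.17 and 0.29, while VTE5 fell by 1.01 and 0.96. Under quantile normalization 1 rose and 3 fell in myb30 and 2 rose and 2 fell in Col local leaves, with the same total 2 rose and 2 fell and 2 rose and 3 fell, and the list medians were negative under both. With the same total these medians were -0.093 in myb30 and -0.17 in Col, above the median of all genes under that scaling. In systemic leaves 1 rose and 2 fell in each genotype, or 1 rose and 0 fell in myb30 without both libraries in doubt.

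Of 8 light regulators, 4 rose and 1 fell in myb30 local leaves and 5 rose and 1 fell in Col local leaves. In systemic leaves 0 rose and 5 fell in myb30, and 2 rose and 6 fell in Col. HY5, a bZIP factor that promotes light responses, rose by 1.83 in myb30 and 1.81 in Col local leaves and fell by 1.02 and 1.91 in systemic leaves, the same directions as ELIP1. The sigma factor gene SIG5 rose by 1.24 and 1.37 in local leaves, with -0.47 in myb30 systemic leaves, which did not pass, and fell by 0.88 in Col systemic leaves. The blue-light receptor gene CRY1 fell by 1.23 and 1.11 in local leaves, and the UV-B receptor gene UVR8 rose by 0.38 in Col, with 0.13 in myb30, which did not pass. Without both libraries in doubt 0 rose and 3 fell in myb30 and 1 rose and 6 fell in Col systemic leaves, and scaled to the same total 4 rose and 1 fell in myb30 and 3 rose and 3 fell in Col local leaves. These counts describe the lists, and nothing particular to any of them was tested.

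**Figure D5:**
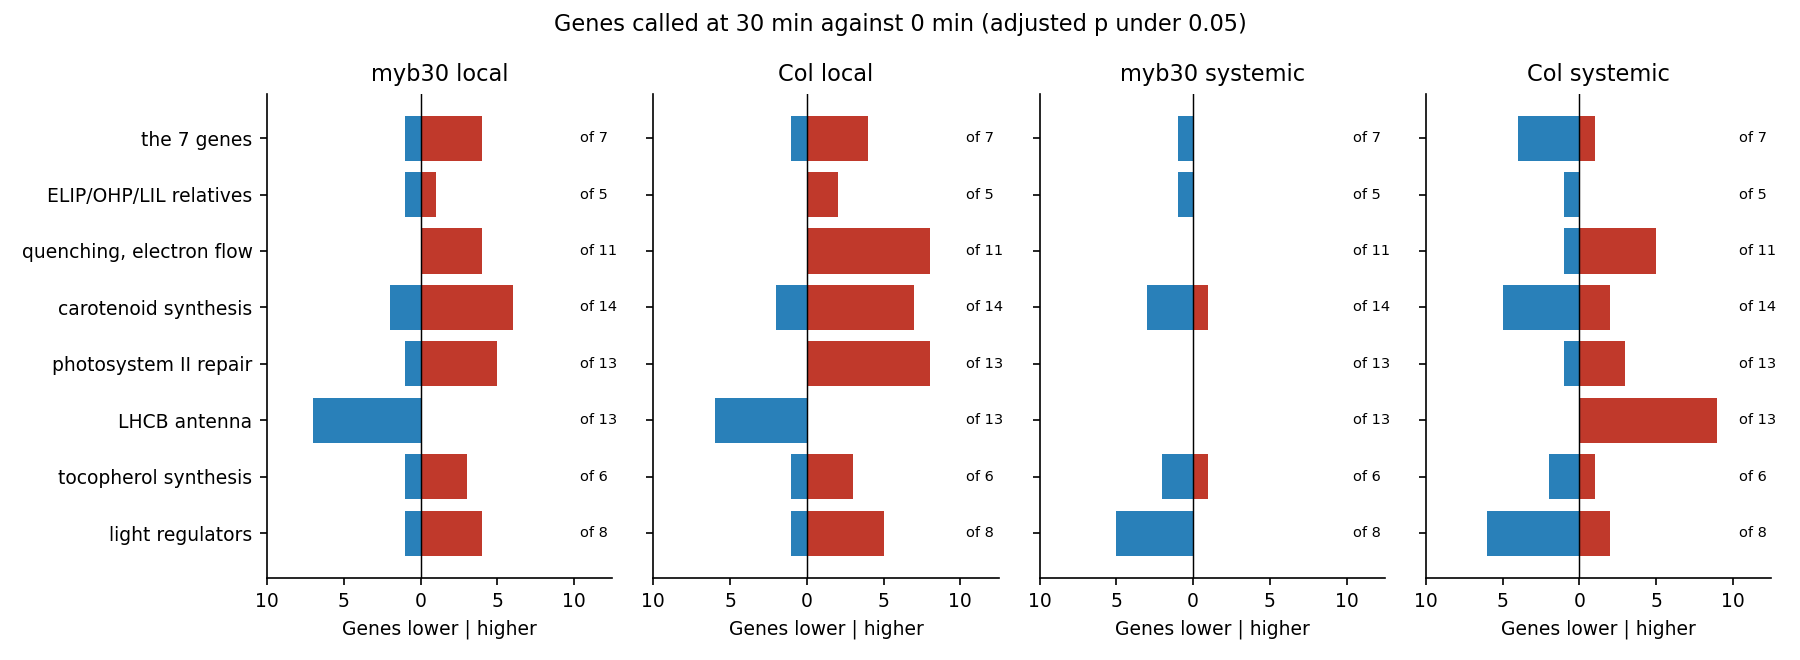
Numbers of genes called lower (left of 0) and higher (right of 0) at 30 min against 0 min, for the 7 genes and 7 lists of related genes, in myb30 local, Col local, myb30 systemic and Col systemic leaves; the number at the right is how many were tested. In local leaves the LHCB antenna bars point left and the others mostly right, and in myb30 systemic leaves most bars are short.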

How the data were processed

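The table holds normalized read counts of 32833 genes in 48 libraries, a signal on a linear scale that the authors made by dividing gene read counts by 1 size factor per library. Turned back with these factors, which range from 0.776 to 1.171, 100% of the 1084756 values above 0 were whole to within 1e-06. These recovered read counts served edgeR and DESeq2. Per the submitters' processing notes, the tools were STAR 2.4.0.1, DESeq2 1.20.0, cutadapt 1.18 and FastQC 0.11.7 and the build was TAIR10. The sources used here do not give the counting tool, its strand setting or the read length. Libraries held 70514715 to 89402096 reads counted in genes. How far depth and the spread between libraries each limit the precision was not measured.

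Groups came from the sample titles. A filter on the mean value (10 or more) kept 19556 genes. Their log2(value + 1) entered 1 limma 3.58.1 fit (R 4.3.3, trended empirical Bayes) of 16 group means to 48 libraries. P-values were Benjamini-Hochberg adjusted over the tested genes within each of 48 comparisons, with a threshold of 0.05. A pseudocount of 1 hardly alters these abundant genes. As alternatives, the recovered counts were tested with edgeR 4.0.16 (TMM, quasi-likelihood) and DESeq2 1.42.0, which gave no adjusted p for 2 of 336 tests of the 7 genes. In the limma fit, the pseudocount was set to 0.5 or 8, the filter dropped, the threshold set to 0.01, the libraries quantile normalized or brought to 1 total, the fit limited to the groups compared, or the library number added as a block. Each library and each number was left out in turn, and fits were made without the 2 libraries that go against their labels and without 3 outlying 0 min libraries (Col local replicate 3, Col systemic replicate 1, myb30 systemic replicate 3) set apart in earlier work. In 14 of 36 comparisons of 2 groups, libraries of the same number deviated together (every correlation above 0.1) and were taken as paired, among them Col local against systemic leaves at 2 and 8 min. The values reported for these 14 still come from the fit without the block, unless the block is named. What a number stands for is not stated in the labels. The limma fit was also run on simulated data, and the outcome is not given here.

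The genes, the lists and the tests were chosen with earlier results of these data known. Named were the 7 genes, MYB30, for each of the 7 the 3 genes of the highest correlation among those with a mean of at least 50, and of each list the called genes with the 2 largest and 2 smallest changes in Col local leaves at 30 min. Positions, symbols and promoter sequences are those of the RefSeq annotation of TAIR10.1, whose identifiers matched 32548 of the listed genes; proteins were not used here. Python 3.11.15 with pandas 2.3.3, numpy 2.4.6 and matplotlib 3.10.9 was used for tables and plots.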

Additional observations from a re-analysis of the deposited data

Results flagged for a closer look

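In 10 tests the change from 0 min differed between local and systemic leaves of the same genotype, by the test of that difference, given here as the local minus the systemic log2 change. At 8 min this held for ELIP1 in Col (1.25 ± 0.28, adjusted p = 0.00418). At 30 min in myb30 it held for ELIP1 (3.50 ± 0.28, adjusted p = 1.58e-12), ELIP2 (2.56 ± 0.46, adjusted p = 4.75e-05), LHCB7 (1.57 ± 0.16, adjusted p = 6.83e-10) and VDE (-0.40 ± 0.14, adjusted p = 0.0318). At 30 min in Col it held for ELIP1 (5.0 ± 0.28, adjusted p = 5.22e-17), ELIP2 (3.40 ± 0.46, adjusted p = 2.06e-07), LHCB7 (1.75 ± 0.16, adjusted p = 2.63e-11), PSBS (0.49 ± 0.13, adjusted p = 0.00423) and VDE (-0.69 ± 0.14, adjusted p = 0.000113). At 30 min ELIP1 in myb30, and ELIP1, ELIP2 and LHCB7 in Col, had risen in local and fallen in systemic leaves, and VDE in Col had fallen in local and risen in systemic leaves, each past the threshold. Without library number 3 the difference of ELIP1 in Col at 8 min was 0.94 and did not pass, and those of PSBS in Col and VDE in myb30 were lost under several alternatives. Of the changes within a leaf, the limma call of VDE in Col local leaves at 30 min (-0.24, adjusted p = 0.0377) was lost under 11 of 21 alternatives. That of ELIP1 in myb30 systemic leaves at 30 min was lost under 2 of 21.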

How the results depend on the processing

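Of 66 called tests of the 7 genes, 36 kept their call under every alternative run and 30 lost it under at least 1. Of the 336 tests, edgeR kept 335 on their side of the threshold, either pseudocount kept 336, DESeq2 328 of the 334 with an adjusted p, no filter 327, quantile normalization 313 and the same total 323. The count of calls against 0 min in myb30 local leaves was 7, and was 4 at a threshold of 0.01 and 4 with the compared groups alone. That in myb30 systemic leaves was 1, and was 2 by DESeq2, 0 with the compared groups alone and 2 with the replicate block. That of genotype by time was 0, and 1 with the block (ELIP2 in systemic leaves at 30 min, 1.48, adjusted p = 0.0486). The block changed the call of a paired comparison once (LHCB7 in Col, local against systemic leaves at 8 min). Over library numbers left out, the counts ran from 4 to 7 in myb30 local (7 with all libraries), 5 to 8 in Col local (8), 0 to 2 in myb30 systemic (1) and 7 to 12 in Col systemic leaves (14), 10 to 11 between leaves (13), 9 to 9 for leaf by time (10) and 8 to 12 for the steps (13). Over single libraries left out they ran from 4 to 9, 6 to 9, 1 to 2 and 12 to 15 in these 4 kinds of leaf, 12 to 15 between leaves, 9 to 11 for leaf by time, 12 to 13 for the steps, and 0 to 1 for genotype by time. Between the genotypes the count was 0 throughout. Under quantile normalization ZEP reversed in Col local leaves at 8 min (-0.19) and 30 min (-0.60), over the local step from 8 to 30 min in myb30 (-0.33) and Col (-0.41), between leaves at 30 min in myb30 (-0.33) and Col (-0.53), and in leaf by time at 30 min in myb30 (-0.47) and Col (-0.64). OHP1 reversed in Col local leaves at 30 min (-0.31, or -0.32 with the same total, where ZEP also reversed, -0.18) and between Col leaves at 30 min (-0.11, or -0.098 with the same total). The scaling to the same total also lowered the median of all genes in local leaves at 30 min, as given above. The cause of the reversals was not tested.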
